A study of Solanum lycopersicum with 12 samples.

Results

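The comparison described here is between 2 hr and 30 min of salt treatment in root RNA of ZS-5, the salt-sensitive of the 2 tomato genotypes in the series. It rests on 4 of the 12 arrays, chosen by their titles: 2 arrays of ZS-5 at 2 hr and 2 of ZS-5 at 30 min. On each array, RNA from roots of salt-treated seedlings was set against RNA from control seedlings, and the 2 arrays of a time carry the 2 RNAs with the dyes exchanged. The sources used here do not give the salt, its dose, the age of the seedlings or the number of plants behind an RNA. The remaining 8 arrays hold ZS-5 at 6 hr and the salt-tolerant genotype LA2711 at 30 min, 2 hr and 6 hr, and are used below only beside the ZS-5 values. The series title names suppression subtractive hybridization as the source of the clones, and a share of clones is not a share of the root transcriptome.

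High salt reaches roots as an osmotic stress, which is felt at once, and as an ionic stress, which builds up as sodium enters the cells. Roots answer with hormone signals, among them abscisic acid, ethylene and jasmonate, and with transcription factors such as the NAC, WRKY and ethylene response factor families. Later layers of the response include solute and water transport, the detoxification of peroxide, nitrogen and carbon metabolism and defence proteins. Platform names cover some of these functions on this array.

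Values are log2 ratios of the treated and control RNA of an array, averaged over the adjacent 3 spots of a clone and centred on the median of each array. The sources used here do not say whether treated or control RNA is the numerator, although the orientation is common to all arrays. A value is therefore said to lie on the positive or on the negative side, and neither side is called an induction. The difference between the times is the 2 hr minus the 30 min log2 ratio, taken between the 2 arrays with treated RNA in Cy5 and between the 2 with treated RNA in Cy3, and then averaged. The repeat numbers of the labels run opposite at 30 min, so arrays were matched by dye. The 2 arrays of a time are a technical dye swap and count as 1 replicate, so the comparison within ZS-5 has no test, and each SD below is the spread over the 2 dye-matched differences. Where 2 values are given for a time, the array with treated RNA in Cy5 comes first. Levels cannot be read from ratios, so the tissue was not checked against root markers.

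Values were present for 9187 and 9013 of 10368 spots on the 30 min arrays, and for 9820 and 9775 on the 2 hr arrays. Of 3456 clones, 3055 were measured on all 4 arrays, 206 were complete at 2 hr but not at 30 min, and 8 the reverse. The spread over clones was wider at 2 hr (SD 1.94 and 1.98) than at 30 min (SD 1.20 and 1.25). At 30 min the 2 arrays correlated with r = 0.36 over 3055 clones, and with r = 0.95 over the 3038 clones left without 17 sets that lie 324 spots apart or multiples of it. On the 30 min and 2 hr arrays of ZS-5 these sets lay between 7.27 and 8.85 with treated RNA in Cy5. With it in Cy3 they lay between -8.82 and -7.73, so that their side followed the dye. Their dye-swap means stayed between -0.48 and 0.56, and 0 of them were counted as shifted below. They remain among the 3055 clones over which the shares below are taken. The dye-matched differences of the 2 pairs correlated with r = 0.97 over the 3055 clones, which share arrays and are not independent.

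**Figure D1:**
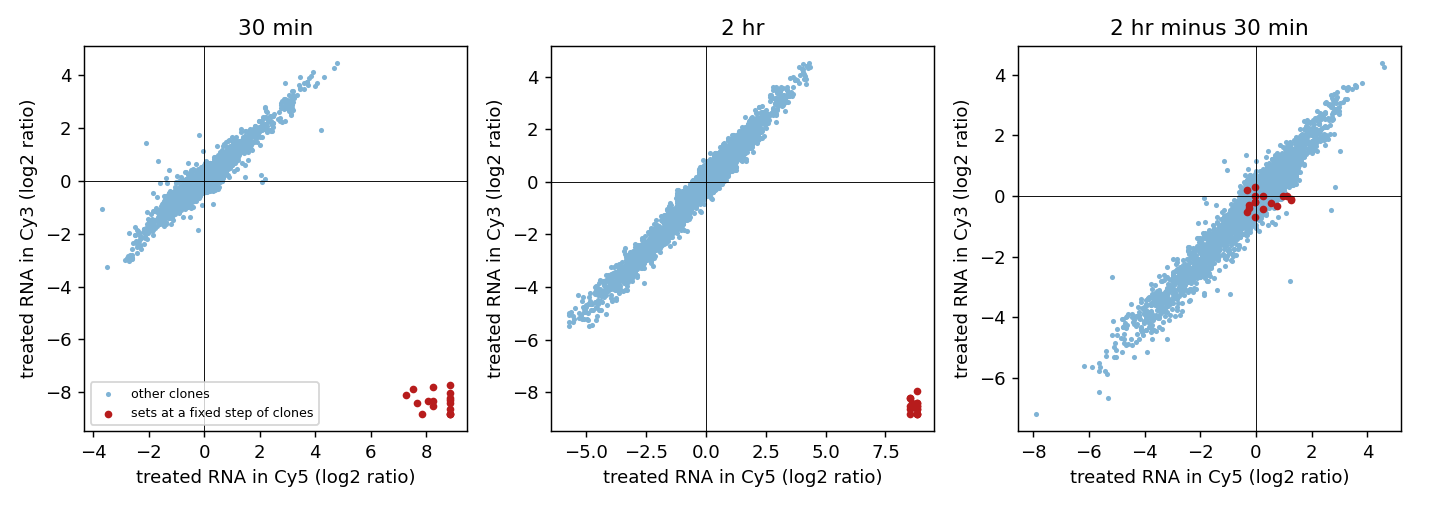
Centred log2 ratios of 3055 ZS-5 clones on the array with treated RNA in Cy5 (x axis) against the array with treated RNA in Cy3 (y axis), at 30 min, at 2 hr, and for the 2 hr minus 30 min difference, 1 point per clone. The red sets, 324 spots apart or multiples of it, lie near 8 on the x axis and -8 on the y axis at both times while in the difference they lie near the origin and 0 are shifted; the other clones follow the diagonal.

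Far more clones lay away from 0 at 2 hr than at 30 min, and the excess was larger on the negative side. At 30 min 508 of 3055 clones (16.6%) were past 2-fold on both arrays, 327 positive (10.7%) and 181 negative (5.92%). At 2 hr there were 1445 (47.3%), with 592 positive (19.4%) and 853 negative (27.9%). The median distance from 0 was 0.52 at 30 min and 1.06 at 2 hr. Both dye-matched differences were past 2-fold on the same side in 1188 clones (38.9%), which are called shifted below: 391 shifted to the positive side (12.8%) and 797 to the negative side (26.1%). Past 2-fold on opposite sides in the 2 pairs were 2 clones. Positive shifts were 32.9% of these, against 53.1% after quantile normalisation, which forces all arrays to the same distribution.

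The clones at 30 min were sorted by where they lay at 2 hr. Of the 327 positive clones, 186 were still past 2-fold on the positive side at 2 hr (56.9%), 103 were not past 2-fold on both arrays (31.5%) and 38 lay past 2-fold on the negative side (11.6%). Of the 181 negative clones, 132 stayed on that side (72.9%), 44 did not (24.3%) and 5 lay on the positive side (2.76%). A further 1084 clones were past 2-fold only at 2 hr, 401 positive and 683 negative. The clones that stayed on the positive side kept a similar distance, with a median difference of 0.22, whereas those that stayed on the negative side moved further out, with a median difference of -1.32. The 38 clones that crossed to the negative side had a median of 1.54 at 30 min and -2.29 at 2 hr. Of these, 36 of the 37 measured at 6 hr lay on the negative side then too. This was not particular to them: the same held for 676 of 683 clones negative at 2 hr only and 132 of 132 negative at both times. These splits depend on the wider spread at 2 hr: with arrays brought to an equal median absolute deviation (deviation scaling), 643 clones were past 2-fold only at 30 min and 715 only at 2 hr, against 147 and 1084 here.

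**Figure D2:**
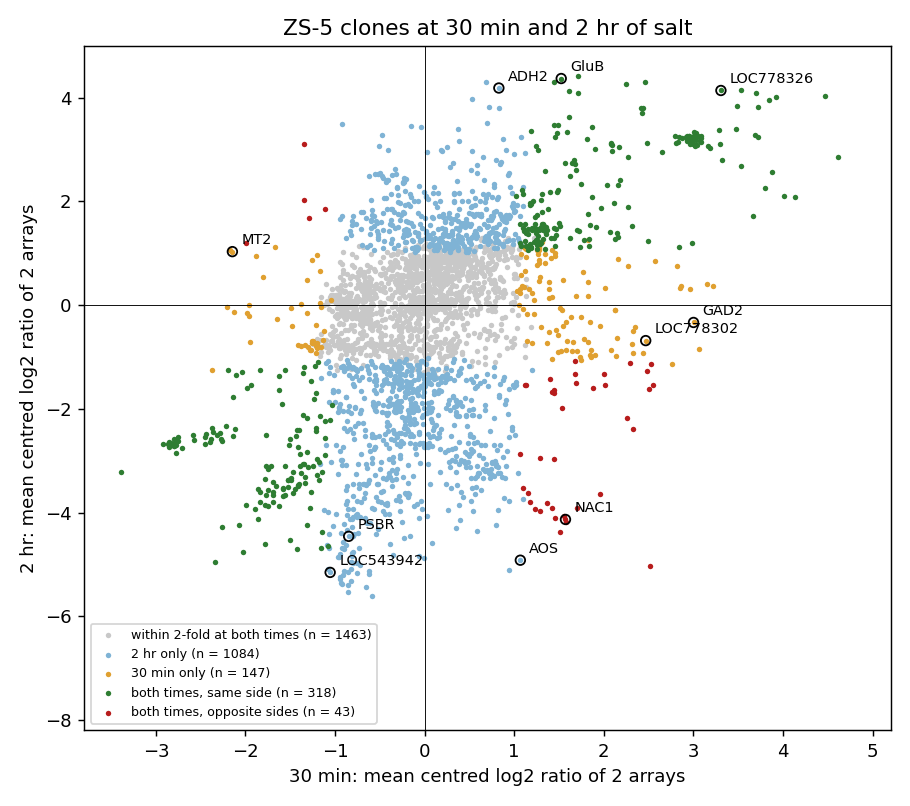
Mean centred log2 ratio of the 2 ZS-5 arrays at 30 min (x axis) and at 2 hr (y axis), 1 point per clone, coloured by whether both arrays of a time were past 2-fold. The 1084 clones past 2-fold only at 2 hr form the vertical band, with more on the negative side, and the 43 that changed sides lie mostly at the lower right, among them NAC1.

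A platform annotation names 79 clones of 38 genes, all measured on the 4 arrays. Of these clones 14 shifted to the positive side (17.7%, against 12.8% of all clones) and 25 to the negative side (31.6%, against 26.1%). The named clones are therefore near the background of the array, and many of them are repeats of a few genes. Their median difference was -0.40, against 0.04 over all clones. In all, 23 genes had at least 1 shifted clone and 15 had none. Of the 39 shifted clones, 33 also shifted after quantile normalisation, 32 with deviation scaling and 30 under both. A further 10 clones, 5 on each side, shifted only after quantile normalisation, and 26 only with deviation scaling, 24 of them to the negative side. Within the named clones the median SD over the 2 dye-matched differences was 0.20. The role groups below are small, and their counts stand beside the same shares of all clones, 12.8% positive and 26.1% negative.

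**Figure D3:**
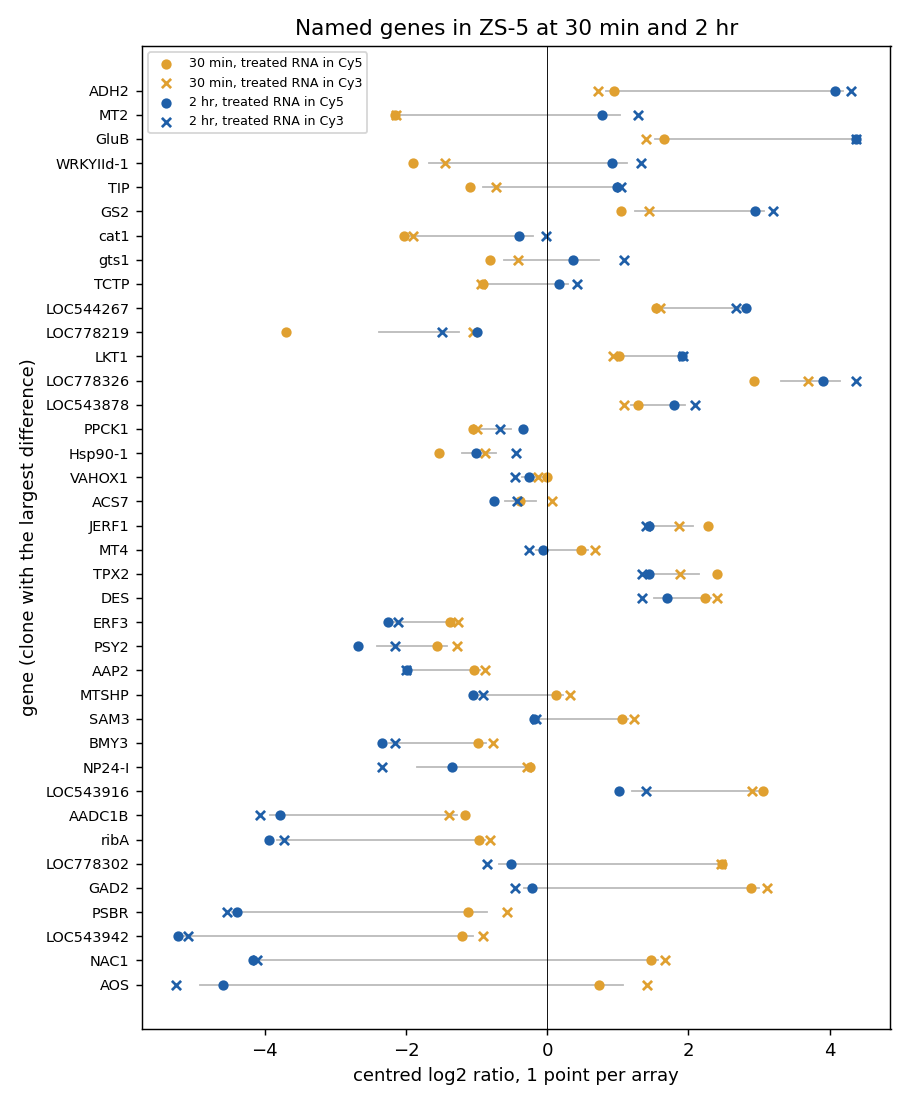
Centred log2 ratio on each of the 4 ZS-5 arrays for the clone with the largest difference of each of the 38 named genes, sorted by that difference; circles are arrays with treated RNA in Cy5 and crosses those with it in Cy3. AOS and NAC1, at the bottom, lie on the positive side at 30 min and below -4 at 2 hr, whereas ADH2, at the top, lies below 1 at 30 min and above 4 at 2 hr.

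Of the 12 clones grouped as transcription factors, those of NAC1, ERF3 and JERF1, 7 shifted to the negative side and 1 to the positive. Over all clones these shares were 26.1% and 12.8%. The shifted clones of the group were all of NAC1, and the median difference of the 12 was -4.90. NAC1, of the plant-specific NAC family of transcription factors, has 9 clones, of which 7 shifted to the negative side by -5.71 to -4.60. These 7 were picked by that shift, so a gap between the times follows from the choice. They lay between 0.81 and 1.67 on the 30 min arrays and between -4.20 and -3.67 on the 2 hr arrays. By size of the difference they rank between 6 and 31 of all clones. The largest was that of spots 3658 to 3660, at 1.48 and 1.67 at 30 min and at -4.17 and -4.10 at 2 hr, a difference of -5.71 ± 0.09 (SD over the dye pairs), or 52.2-fold in the ratio. The other NAC1 clones did not follow: spots 3769 to 3771 differed by 1.31 ± 0.34 and spots 4192 to 4194 by -0.27 ± 0.22, with -1.64 under deviation scaling. Which of the clones measure the same transcript was not tested. WRKYIId-1, of the WRKY family of transcription factors but grouped apart from these 12, lay at -1.90 and -1.45 at 30 min and at 0.92 and 1.32 at 2 hr, a difference of 2.80 ± 0.04, and 4.75 after quantile normalisation. ERF3 and JERF1, both of the ethylene response factor family, did not shift in centred values. ERF3 differed by -0.87 ± 0.02, from -1.32 to -2.18, but by 1.15 and 0.48 after quantile and deviation scaling. The JERF1 clones differed by -0.65 and 0.05 and stayed on the positive side at both times, at 1.42 and 1.49 at 2 hr, with differences of -2.87 and -1.50 under deviation scaling. VAHOX1, a homeobox protein gene that was also grouped apart from the 12, differed by -0.29.

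Of the 9 clones of oxylipin and ethylene synthesis, 5 shifted to the negative side and 1 to the positive, with a median difference of -1.86. AOS encodes allene oxide synthase, which makes the precursor of jasmonate, and all 6 shifted clones are its own. Its clone of spots 1384 to 1386 lay at 0.73 and 1.41 at 30 min and at -4.59 and -5.25 at 2 hr, a difference of -5.99 ± 0.95 and 63.5-fold in the ratio. AOS spots 1120 to 1122 and 781 to 783 differed by -5.05 ± 0.04 and -4.78 ± 0.16, and spots 3373 to 3375 by -3.39 ± 0.32, all 3 from the positive to the negative side. AOS spots 805 to 807 were already negative at 30 min, at -1.53, and differed by -1.86, but by 0.58 after quantile normalisation. Spots 1540 to 1542 of AOS kept their place instead, at 3.16 on both 30 min arrays and at 3.24 and 2.92 at 2 hr. Its difference was -0.08, but -3.47 with deviation scaling. Spots 10144 to 10146 differed by 1.40 ± 0.33, from -1.38 to 0.02, and by 3.21 after quantile normalisation. DES, a divinyl ether synthase that uses the same kind of substrate, lay at 2.23 and 2.41 and then at 1.69 and 1.35, a difference of -0.80 ± 0.37 in centred values and -3.34 with deviation scaling. ACS7, which makes the ethylene precursor, differed by -0.43.

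**Figure D4:**
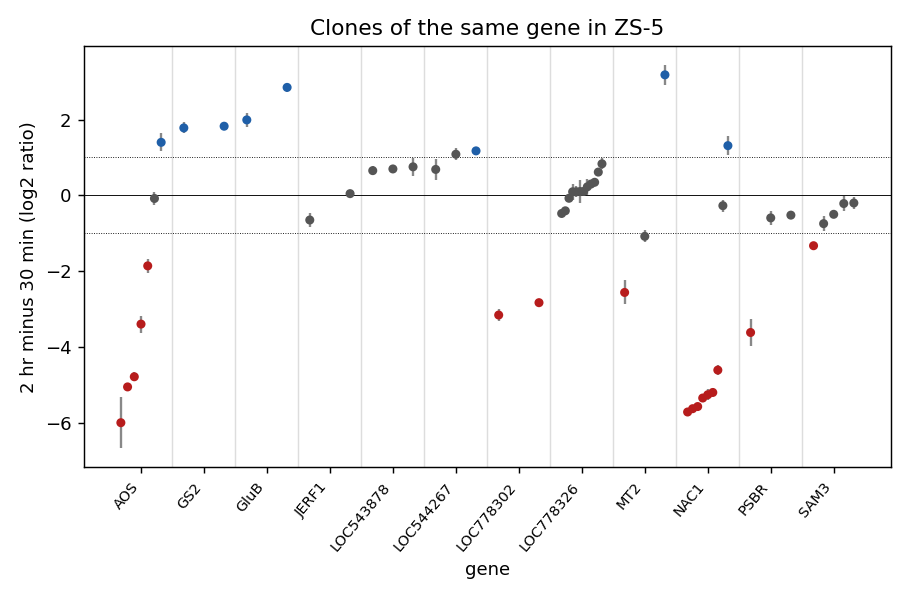
The 2 hr minus 30 min difference in ZS-5 for each clone of the 12 genes with several clones; points are means of the 2 dye-matched differences, bars join those 2 differences, and dotted lines mark 2-fold. Blue and red points are clones shifted to the positive and the negative side; AOS, MT2 and NAC1 hold both, while the 12 LOC778326 clones lie within 2-fold.

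In nitrogen and amino acid metabolism 3 of 11 clones shifted to each side, and the 2 directions belonged to different genes. Both clones of GS2, a glutamine synthetase gene of ammonium assimilation, shifted to the positive side, by 1.78 ± 0.21 and 1.82 ± 0.10. GS2 spots 1831 to 1833 lay at 1.52 and 1.40 at 30 min and at 3.44 and 3.03 at 2 hr. With deviation scaling the GS2 differences were 0.33 and 0.57 and neither clone shifted. The gene gts1, also a glutamine synthetase, lay at -0.81 and -0.42 and then at 0.36 and 1.09, a difference of 1.34 ± 0.24, and 2.31 after quantile normalisation. GAD2, a glutamate decarboxylase that makes gamma-aminobutyrate, was among the most positive named clones at 30 min, at 2.88 and 3.12, and lay at -0.21 and -0.45 at 2 hr. Its difference of -3.34 ± 0.34 was 10.1-fold in the ratio, and -6.76 with deviation scaling. AADC1B, an aromatic amino acid decarboxylase, was negative at both times, at -1.16 and -1.39 and then at -3.78 and -4.06, a difference of -2.65 ± 0.04. After quantile normalisation AADC1B differed by -0.26 and did not shift, and with deviation scaling it differed by -1.42. SAM3, which makes S-adenosylmethionine, has 5 clones that lay between 1.15 and 1.41 at 30 min as dye-swap means. Of these only spots 5650 to 5652 shifted, by -1.32 ± 0.09, and the other 4 differed by -0.74 to -0.20 in centred values. With deviation scaling the 5 SAM3 clones differed by -2.64 to -1.57. The amino acid permease gene AAP2 differed by -1.03 and did not pass on both pairs, with 0.67 after quantile normalisation.

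Among carbon genes ADH2, the alcohol dehydrogenase of fermentation, had the largest positive difference of any named clone. It lay at 0.94 and 0.72 at 30 min and at 4.07 and 4.30 at 2 hr, a difference of 3.36 ± 0.32 or 10.3-fold in the ratio. BMY3, a beta-amylase of starch breakdown, shifted from -0.87 to -2.24, by -1.37 ± 0.03, but by 0.20 after quantile normalisation. PPCK1, the kinase of phosphoenolpyruvate carboxylase, differed by 0.51, but by 2.00 after quantile normalisation.

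Of the 6 clones of peroxide and metal handling, 2 shifted to the positive side and 1 to the negative. The catalase gene cat1 lay at -2.03 and -1.89 at 30 min and at -0.40 and -0.01 at 2 hr. Its difference was 1.76 ± 0.17, with 3.56 and 3.95 after quantile and deviation scaling. The peroxidase gene TPX2 went the other way within the positive side, from 2.41 and 1.89 to 1.45 and 1.34, a difference of -0.76 ± 0.29. TPX2 was not shifted in centred values, but differed by -1.25 after quantile normalisation and by -3.06 with deviation scaling, both shifts. The metallothionein gene MT2 has 3 clones with unlike values. MT2 spots 7225 to 7227 lay at -2.15 and -2.14 and then at 0.77 and 1.29, a difference of 3.18 ± 0.36, whereas spots 9751 to 9753 differed by -2.56 ± 0.45 and spots 8869 to 8871 by -1.08 ± 0.22. The last value was 1.05 after quantile normalisation and 0.48 with deviation scaling, and that of spots 7225 to 7227 was 5.10 and 5.66. MT4, another metallothionein gene, differed by -0.74, with -1.29 and -1.42 under these scalings.

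Both clones of GluB, a beta-1,3-glucanase of defence, shifted to the positive side and account for the 2 positive shifts among 6 defence clones. GluB spots 9247 to 9249 lay at 1.65 and 1.40 at 30 min and at 4.37 on both 2 hr arrays, a difference of 2.85 ± 0.18, and spots 4516 to 4518 differed by 1.99 ± 0.25. With deviation scaling the GluB differences were 1.40 and 0.51, and spots 4516 to 4518 did not shift. NP24-I, an osmotin-like protein, shifted to the negative side by -1.58 ± 0.67, with 2 hr arrays at -1.35 and -2.34. NP24-I differed by -0.93 after quantile normalisation and by -1.39 with deviation scaling, and shifted under neither. The 3 clones of LOC543878 were positive at both times and differed by 0.65 to 0.75, but by -1.96 to -0.23 with deviation scaling.

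The 2 clones grouped as membrane transport, those of TIP and LKT1, lay on the positive side at 2 hr, a share not given here for all clones. The permease gene AAP2, grouped with nitrogen metabolism, lay at -1.98 and -1.99 at 2 hr. TIP, an aquaporin of the vacuolar membrane, lay at -1.09 and -0.72 at 30 min and at 0.995 and 1.05 at 2 hr, a difference of 1.93 ± 0.22, and 3.37 after quantile normalisation. The potassium channel gene LKT1 was positive at both times and differed by 0.95 ± 0.06, just under 2-fold, but by -0.03 with deviation scaling. Of the chaperone genes MTSHP, a mitochondrial small heat shock protein, shifted by -1.20 ± 0.04, from 0.23 to -0.98, and Hsp90-1 differed by 0.48, but by 2.17 after quantile normalisation.

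All 5 clones of plastid functions lay on the negative side at both times, a share not given here for all clones. Of the 5, 2 shifted, which is near the 38.9% of all clones that did. PSBR, a protein of photosystem II, lay at -1.13 and -0.57 and then at -4.39 and -4.53 in its clone of spots 1453 to 1455, a difference of -3.61 ± 0.49, and -1.59 after quantile normalisation. The other PSBR clones differed by -0.59 and -0.52, but by 0.76 and 0.75 after quantile normalisation. The gene ribA, of riboflavin synthesis, lay at -0.96 and -0.80 and then at -3.94 and -3.72, a difference of -2.95 ± 0.04, but after quantile normalisation it differed by -0.88 and did not shift. PSY2, a phytoene synthase of carotenoid synthesis, differed by -0.99 ± 0.17, but by 1.15 after quantile normalisation.

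Other named genes include LOC543942, which had the largest difference among genes with 1 clone. It lay at -1.20 and -0.91 at 30 min and at -5.23 and -5.08 at 2 hr, a difference of -4.10 ± 0.10, and -2.62 after quantile normalisation. The 2 clones of LOC778302 left the positive side, by -3.15 ± 0.23 and -2.83 ± 0.14, with spots 3547 to 3549 at 2.48 and 2.46 and then at -0.51 and -0.85. With deviation scaling these LOC778302 differences were -5.98 and -5.46. LOC543916 stayed positive but shifted by -1.78 ± 0.39, from 2.98 to 1.20, with -5.06 under deviation scaling. The 12 clones of LOC778326 kept large values at both times: as medians they lay at 3.51 at 30 min and 3.61 at 2 hr, with arrays between 1.67 and 3.97 and between 2.08 and 4.38, and 0 of the 12 shifted. With deviation scaling, which widens the 30 min arrays, their differences lay between -4.48 and -1.73. One of 3 LOC544267 clones shifted, by 1.17 (spots 1534 to 1536), with 0.51 after quantile normalisation and -0.44 under deviation scaling, and the others differed by 1.09 and 0.69. TCTP, the translationally controlled tumor protein gene, shifted by 1.22 ± 0.21, from -0.92 to 0.30, and by 2.71 after quantile normalisation. For LOC778219 the 30 min arrays disagreed, at -3.70 and -1.05, and its difference of 1.13 ± 2.23 is smaller than its SD. Among clones with no gene name, the largest negative differences were -7.54 ± 0.52 (spots 4570 to 4572) and -6.05 ± 0.57 (spots 46 to 48). The largest positive ones were 4.45 ± 0.10 (spots 1498 to 1500) and 4.43 ± 0.22 (spots 7402 to 7404).

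The same difference in LA2711 is the only repeat of the comparison in the series. There 943 of 3168 clones measured at both times shifted (29.8%), 254 to the positive side (8.02%) and 689 to the negative (21.7%). Over the 3040 clones measured in both genotypes, 555 clones shifted to the negative side in both, which is 69.8% of the 795 in ZS-5 and 85.5% of the 649 in LA2711. To the positive side 146 shifted in both, 37.5% of the 389 in ZS-5 and 59.8% of the 244 in LA2711. The 7 shifted NAC1 clones differed by -4.45 to -3.49 in LA2711 against -5.71 to -4.60 in ZS-5, and AOS spots 1384 to 1386 by -6.07. Among values unlike those of ZS-5 were those of GAD2, at 0.02 ± 0.16 in LA2711 against -3.34 in ZS-5, and of MT2 spots 7225 to 7227, at -0.16 ± 0.17 against 3.18. TPX2 differed by 1.68 ± 0.02 in LA2711 against -0.76, LOC543878 spots 7648 to 7650 by 2.92 ± 0.17 against 0.65, and TIP by 0.33 ± 0.02 against 1.93. DES differed by 0.97 ± 0.01 in LA2711 against -0.80. The gap between the genotypes was 1.60 for TIP. It was larger in size for NAC1 spots 3658 to 3660 (-1.93), 3643 to 3645 (-1.89) and 4912 to 4914 (-1.72). Without centring these LA2711 values are lower by 0.57, which makes that of TIP -0.24, while ZS-5 values move by 0.03. With 1 replicate for each genotype and time, the difference between the genotypes could not be tested.

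**Figure D5:**
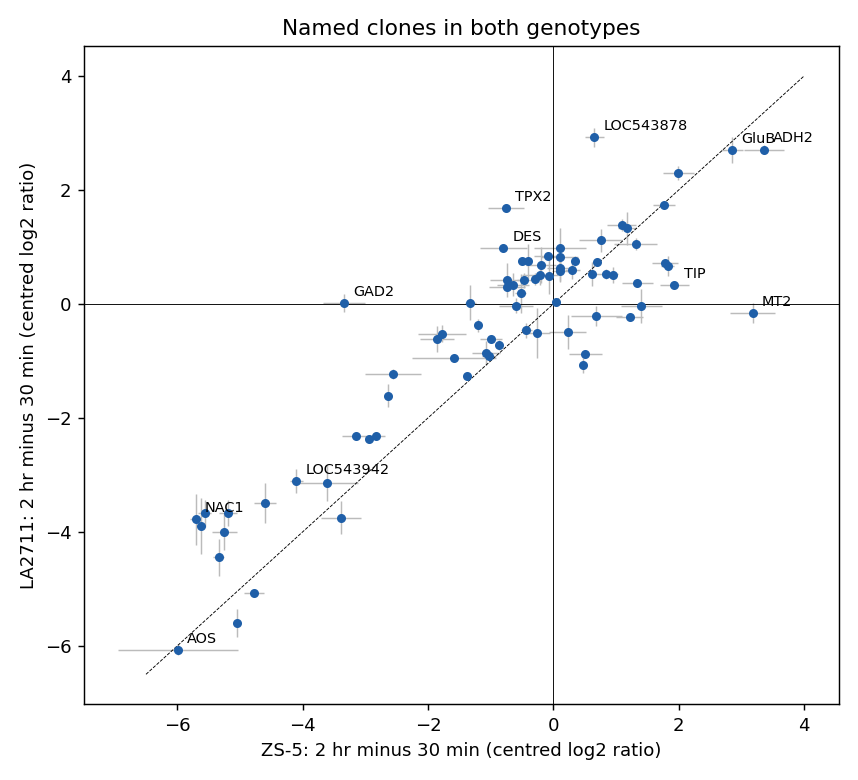
The 2 hr minus 30 min difference of the 77 named clones measured in both genotypes, in ZS-5 (x axis) and LA2711 (y axis); points are means of the 2 dye-matched differences, bars are their SD, and the dashed line marks equal values. AOS spots 1384 to 1386 lie close to the line and NAC1 spots 3658 to 3660 farther from it. GAD2 and MT2 spots 7225 to 7227 lie far from 0 in ZS-5 and near 0 in LA2711, and TPX2 lies on opposite sides.

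The difference shared by both genotypes was tested with limma over 3018 clones measured on all 12 arrays, with 1 value for each of the 6 conditions, genotype as a covariate and 2 residual degrees of freedom. Benjamini-Hochberg adjusted p-values under 0.05 were called. The test takes ZS-5 and LA2711 together and treats what differs between them as spread, so it is not a test within ZS-5, and it includes the ZS-5 values given above. Called were 1096 clones (36.3%), 347 positive (11.5%) and 749 negative (24.8%). Positive calls were 31.7% of these with centring and 11.6% without. The count was 628 without ZS-5 at 2 hr and 705 without ZS-5 at 30 min. Of the 77 named clones tested, 10 were called positive and 23 negative.

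Of the named calls, 19 of 8 genes held without centring and without each condition in turn, and 14 did not. Leaving out either 6 hr condition gave the same 991 calls as the 30 min and 2 hr conditions alone, so both count as 1 check. The 19 are 7 NAC1 and 4 AOS clones, both GluB and both LOC778302 clones, and 1 clone each of LOC543942, PSBR, ribA and AADC1B. Of these 19, 14 were also called after both quantile normalisation and deviation scaling, namely the NAC1, AOS and LOC778302 clones and GluB spots 9247 to 9249, and 5 were lost under at least 1 of them. After quantile normalisation PSBR differed by -1.35 (limma adjusted p = 0.0503) and ribA by -0.63 (limma adjusted p = 0.247). With deviation scaling GluB spots 4516 to 4518 differed by 0.81 (limma adjusted p = 0.211), LOC543942 by -2.12 (limma adjusted p = 0.0674) and ribA by -1.54 (limma adjusted p = 0.0768). NAC1 (spots 3064 to 3066) differed over both genotypes by -4.89 ± 0.34 (SE, limma adjusted p = 0.000151). AOS (spots 1384 to 1386) differed by -6.03 ± 0.32 (limma adjusted p = 0.000151). LOC543942 differed by -3.61 ± 0.35 (limma adjusted p = 0.000207) and GluB (spots 9247 to 9249) by 2.77 ± 0.30 (limma adjusted p = 0.000322). AADC1B differed by -2.13 ± 0.34 (limma adjusted p = 0.00219). Its difference turned to 0.062 after quantile normalisation (limma adjusted p = 0.911) and to 0.15 with deviation scaling (limma adjusted p = 0.908). ADH2 differed by 3.03 ± 0.75 (limma adjusted p = 0.0163, and 0.0672 without centring). Not called were GAD2 (limma adjusted p = 0.0974), MT2 spots 7225 to 7227 (0.118), TIP (0.0612) and gts1 (0.0783), which had larger differences in ZS-5 than in LA2711. WRKYIId-1 and LOC778219 lacked a value in LA2711 and were not tested.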

How the data were processed

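The deposited table holds 1 log2 ratio per spot and array. Per the labels, each array carries treated and control RNA in 2 dyes; the sources used here do not give how the authors scanned, background-corrected and normalised them. Values at the limit of the underlying ratio, 0.001 or its inverse, were left out. Each run of 3 adjacent spots was averaged to 1 clone, and the median over the 3018 clones with values on all 12 arrays was set to 0 on each array. Arrays of a dye swap are 1 replicate. A clone was called shifted when both dye-matched differences were past 2-fold on the same side. Tests used limma 3.58.1 in R 4.3.3 (lmFit and eBayes, 2-sided), checked on simulated data. Whether control plants were shared between times is not stated, and a p-value reflects only how the conditions vary. The platform annotation gives 38 genes, 37 of which are in the RefSeq gene table. Every named gene is accounted for, by role group. Of the unnamed clones, the 2 largest differences on each side are given, with all 3 spots measured on the 4 arrays. The genes, groups and tests were chosen with earlier results of these data known. Promoter and protein sequences were not used here. Alternatives were centring, scaling, spot summaries, thresholds, array matching and left-out conditions. Intensities were not used. Precision is limited by the 1 replicate for each genotype and time, which more arrays of the same RNAs would not change.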

Additional observations from a re-analysis of the deposited data

Results flagged for a closer look

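Of the 77 named clones measured in both genotypes, 18 clones of 12 genes had both dye-matched differences on one side in ZS-5 and both on the other side in LA2711, in centred values. The same count over all clones is not given here, so the 18 have no background to be read against. Past 2-fold in both genotypes, 2 of the 389 clones shifted to the positive side in ZS-5 were opposite in LA2711. Of the 795 shifted to the negative side, 0 were. The difference between the genotypes was not tested. Still on opposite sides were 9 of the 18 without centring, 7 after quantile normalisation and 5 with arrays brought to an equal median absolute deviation, and 3 under each of these: MT2, TPX2 and PPCK1. MT2 (spots 7225 to 7227) differed between 2 hr and 30 min by 3.18 in ZS-5 and -0.16 in LA2711, TPX2 by -0.76 and 1.68, and PPCK1 by 0.51 and -0.88.

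Without centring but not under every scaling, the sides were opposite for 6 more clones. Hsp90-1 differed by 0.48 in ZS-5 and -1.08 in LA2711, TCTP by 1.22 and -0.22, and DES by -0.80 and 0.97. LOC544267 (spots 5749 to 5751) differed by 0.69 and -0.21, LOC778326 (spots 10252 to 10254) by 0.23 and -0.50, and SAM3 (spots 3181 to 3183) by -0.50 and 0.76.

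The opposite sides of the other 9 clones were lost without centring, although those of VAHOX1 and MT4 held after quantile normalisation and with deviation scaling. They are SAM3 spots 286 to 288 (-0.74 in ZS-5 and 0.29 in LA2711), 4396 to 4398 (-0.20 and 0.67) and 8152 to 8154 (-0.21 and 0.50), and LOC778326 spots 940 to 942 (-0.40 and 0.74), 3868 to 3870 (-0.48 and 0.41) and 5065 to 5067 (-0.075 and 0.49). VAHOX1 differed by -0.29 and 0.44, MT4 by -0.74 and 0.42, and JERF1 (spots 5092 to 5094) by -0.65 and 0.34.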

How the results depend on the processing

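Leaving out centring, keeping spots at the limits, taking the median of the spots, asking for all 3 spots or for clones on all 12 arrays, and matching arrays by repeat number kept each count of ZS-5 clones within 1.5 times; so did 2 alternatives added after seeing the data, the dye-swap mean past 2-fold and leaving out the sets 324 spots apart. After quantile normalisation 722 clones shifted to the positive side, and 624 were past 2-fold only at 30 min, 683 only at 2 hr, 645 at both times on the same side and 144 on opposite sides. With arrays brought to an equal median absolute deviation these counts were 612, 643, 715, 627 and 156. At 1.5-fold 734 shifted to the positive side, 366 were past it only at 30 min, 668 at both times on the same side and 164 on opposite sides. At 3-fold 761 clones shifted, 173 to the positive side, with 87, 133 and 5 in those classes. With 1 dye pair alone, 1364 to 1376 shifted, 482 to 527 to the positive side and 837 to 894 to the negative.

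With limma, positive calls were 112 without centring, and negative calls 427 after quantile normalisation. With deviation scaling 688 were called, 148 positive. Against a 2-fold difference 419 were called, 51 positive and 368 negative. Leaving out each condition gave 628 to 1034 calls, 117 to 313 positive and 511 to 760 negative.

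Of the shifted named clones, those reversed in ZS-5 were BMY3 (0.20) and AOS spots 805 to 807 (0.58) after quantile normalisation. With deviation scaling LOC544267 spots 1534 to 1536 reversed (-0.44). Named clones that were not shifted in centred values changed side too. Among them were AAP2 (0.67), ERF3 (1.15) and PSY2 (1.15) after quantile normalisation, and the LOC543878 clones (-1.96 to -0.23) with deviation scaling. Of the named limma calls, AADC1B (0.062 and 0.15) and AAP2 (0.72 and 0.30) reversed after quantile and deviation scaling. So did AOS spots 805 to 807 (0.86 and 1.63) and MT2 spots 8869 to 8871 (1.01 and 1.21). GS2 (-1.25 and -1.08) and LOC544267 spots 616 to 618 (-1.02) reversed with deviation scaling. Both scalings force the spread of the 30 min and 2 hr arrays to be equal; whether the wider spread at 2 hr is technical was not tested. No paired analysis was possible because within ZS-5 each time has 1 replicate, whose repeats are a dye swap; the limma fit sets the times against each other within each genotype through its genotype term.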

Other observations

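A few clones of ZS-5 stood apart at 2 hr from both the earlier and the later time, in values chosen after seeing the data. Of 3034 clones measured at all 3 times in ZS-5, 25 (0.824%) lay more than 2-fold below both 30 min and 6 hr at 2 hr in each dye, and 18 (0.593%) above both. GAD2 lay at 2.88 and 3.12 at 30 min, at -0.21 and -0.45 at 2 hr, and at 2.73 and 2.37 at 6 hr. Both LOC778302 clones had the same form in ZS-5, with 6 hr means of 1.36 and 1.60, and in LA2711, with 6 hr means of 1.03 and 0.84. WRKYIId-1 lay above both times at 2 hr, with a 6 hr mean of -0.25. The others with names in ZS-5 were GluB (spots 4516 to 4518), with a 6 hr mean of 2.19, and LOC544267 (spots 1534 to 1536), with 1.13. This GluB clone lay above both times in LA2711 too, with a 6 hr mean of 1.47. ADH2 did so in LA2711 but not in ZS-5, with a 6 hr mean of 1.16 in LA2711. In LA2711 the counts were 11 of 3154 clones below both and 35 above both, and the difference between the genotypes was not tested.

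The spots at the limits of the ratio were not spread over the array. On the 4 ZS-5 arrays 98 of 99 such spots belonged to 32 sets at every 108th clone, beginning with spots 25 to 27. They lay on the positive side on arrays with treated RNA in Cy5 in 62 of 63 cases, and on the negative side on arrays with it in Cy3 in 36 of 36. The platform annotation names 0 of these sets.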
